A study of Mus musculus with 4 samples.

Results

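Circular RNAs (circRNAs) of 6 transcription factor genes, Nfix, Elf2, Nfkb1, Zfp148, Zfp512 and Tulp4, were followed in mouse heart. They were taken as every circRNA whose host label, split on commas, held one of the 6 symbols. That gave 9 circRNAs of 1046 in the series and 266 of 7303 back-splice reads (3.64%). The hosts were selected on their gene family among hosts whose back-splice reads, non-junction reads and circular shares under sham and ischemia/reperfusion (I/R) were already known, so the values of that contrast are a description and support nothing by themselves.

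The study profiled total RNA of heart tissue from C57BL/6 mice in 4 libraries, 2 after sham surgery (sham 1 and sham 2) and 2 from a myocardial I/R injury model (I/R 3 and I/R 4), in which the blood supply of part of the heart is stopped and restored. The labels give no age, no duration of ischemia or reperfusion and no part of the heart, and name no genetic change in either group. Whether the 2 libraries of a group stand for 2 animals is not labelled, and p-values and SDs then measure a spread between libraries that may be technical. In bulk tissue, fewer cells of a type and less RNA per cell cannot be told apart.

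A circRNA forms when a splice donor joins an acceptor that lies upstream of it, so that the exons between them close into a ring. Reads across that joint are back-splice reads. Non-junction reads cover the same splice sites without the joint, and can stem from the linear transcript or the inside of the ring. The hosts other than Tulp4 encode proteins of several DNA-binding families. Nfix belongs to the nuclear factor I family, which acts in muscle and brain development. Elf2 is an ETS factor. Nfkb1 encodes p105, the precursor of the p50 subunit of NF-kappa-B, a central factor of inflammatory and stress responses. Zfp148 and Zfp512 are zinc finger proteins. Tulp4 belongs to the tubby-like family, and its place among transcription factors rests on that family. The circRNA files hold no measure of the proteins, so the group name was not tested here.

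The joint of each ring is shown first, because that sequence alone tells the circular from the linear transcript. Positions are those of the files (mm9). The reference annotation, GENCODE vM21, uses another build, so no coordinate was carried over. Instead, each span was matched to the annotated exon start and exon end of its host that lie exactly as far apart. All 9 had 1 such pair each, and of 1003 circRNAs with a host label 91.8% had at least 1. The bases were then read from the GENCODE transcript sequences, 5′ to 3′. Small letters are the end of the last exon and capitals the start of the first exon, to which it is joined. Joints of rings that lie wholly within coding sequence show 30 bases on each side, the others 15.
Nfix chr8:87295683-87296214, minus strand: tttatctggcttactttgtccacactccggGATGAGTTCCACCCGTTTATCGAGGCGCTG
Elf2 chr3:51111972-51129957, minus strand: agaattcagaaacagTAGTTCCAGAGAACC
Elf2 chr3:51103705-51129957, minus strand: aggaagacaatgctgTAGTTCCAGAGAACC
Nfkb1 chr3:135318464-135332303, minus strand: tacccacaggtcaaaGTACCCTCAGAGGCC
Zfp148 chr16:33421407-33435060, plus strand: gcactcaatgtccctGATAGAAGAGAAGAA
Zfp148 chr16:33466941-33468269, plus strand: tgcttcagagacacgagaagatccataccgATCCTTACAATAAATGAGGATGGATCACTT
Zfp512 chr5:31768605-31770613, plus strand: aatcataatagtctgGCGCAGGTGAAAAGG
Tulp4 chr17:6137211-6139156, plus strand: ggccacaacagtgagAGTTGTAAGAGTCCA
Tulp4 chr17:6137211-6185298, plus strand: cccgatgaccagcagAGTTGTAAGAGTCCA

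The lines show that both Elf2 rings begin with the same exon start (TAGTTCCAGAGAACC) and differ in the exon that closes them, and that the same holds for the Tulp4 rings (AGTTGTAAGAGTCCA). The Zfp148 rings share neither end. The Nfix ring is 1 exon, exon 2 of 532 bases, closed on itself, in all 5 coding transcripts that hold it. The shorter Elf2 ring spans exons 2 to 4 of Elf2-201 (484 bases of exon) and the longer one exons 2 to 5 of Elf2-207, a transcript annotated as a target of nonsense-mediated decay (587 bases). The Nfkb1 ring spans exons 2 to 6 (326 bases). The main Zfp148 ring spans exons 2 to 4 (567 bases) and the other exons 6 to 7 (208 bases). The Zfp512 ring spans exons 4 to 7 of Zfp512-201 (401 bases), or 276 bases where Zfp512-203 lacks 1 of those exons. Back-splice reads do not show which inner exons a ring keeps, so these lengths are those of the annotation. No single annotated transcript holds both ends of a Tulp4 ring. Their shared start is an internal exon start of the noncoding transcripts Tulp4-210 and Tulp4-212, and their ends are those of exon 1 and exon 3 of the coding transcript Tulp4-201. The submitters' type is intron for both Tulp4 rings and the longer Elf2 ring, and exon for the other 6. All 9 carry a circBase identifier.

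**Figure D1:**
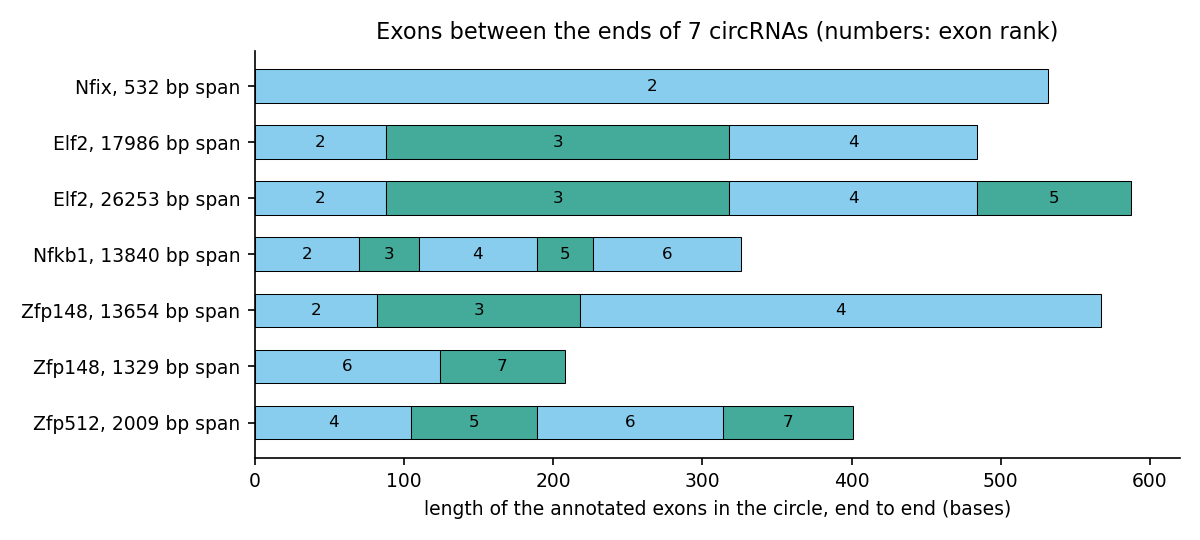
Annotated exons between the ends of the 7 circRNAs whose ends lie in 1 GENCODE vM21 transcript, drawn end to end to scale (x axis, bases), 1 row per circRNA named by host and genomic span, with the exon rank in each block. The Nfix ring is a single exon of 532 bases, and 5 of the 7 begin at exon 2.

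Of the 6 circRNAs with both ends in 1 coding transcript, 4 began at exon 2, those of Nfix, Nfkb1, the shorter Elf2 ring and the main Zfp148 ring. Among 889 other circRNAs matched in this way 43.5% did. Of the 9, 7 spanned an annotated start codon of their host, and those of Nfix and the 1329 bp Zfp148 span did not. Among 912 other circRNAs with a matched span the share was 26.4%. For Zfp512 the start codon is that of a shorter transcript. The rings of Elf2 and of Tulp4 share their starts, so the 7 are not independent of each other, and no test was made. Single-exon rings like that of Nfix made up 5.85% of the 889.

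Depth limits every value that follows. The libraries held 1627 to 1982 back-splice reads, so 1 read was worth 505 to 615 CPM (a scale on which the back-splice reads of each library add up to 1000000). No library lists a circRNA with fewer than 2 reads, and a value of 0 here therefore means 0 or 1. The 6 hosts took 59 reads in sham 1 (3.12%, 95% Clopper-Pearson interval 2.38 to 4.01), 50 in sham 2 (3.07%, 2.29 to 4.03), 79 in I/R 3 (4.38%, 3.48 to 5.43) and 78 in I/R 4 (3.94%, 3.12 to 4.89). The intervals cover counting error only, and they overlap between the groups. Among marker genes of heart cell types, 5 of 7 cardiomyocyte genes had circRNAs, mostly Ttn. Together they held 9.84% and 8.48% of the reads in sham 1 and sham 2 and 13.0% and 18.7% in I/R 3 and I/R 4. The genes did not move together. In the same order of libraries, Ttn had 137, 65, 181 and 277 reads and Slc8a1 23, 47, 40 and 71. Ryr2 had 20, 13, 11 and 21, Myh6 3, 7, 3 and 2, and Tnnt2 3, 6, 0 and 0. Of 7 endothelial genes 2 had any (6, 7, 6 and 10 reads), and of 7 fibroblast and 7 leukocyte genes none, Col1a1 and Ptprc included. Whether a difference in cell types has a part in the results below was not tested.

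Tulp4 and Nfix held most of the reads of the 6 hosts, 41.0% and 26.3%. A back-splice count is taken at 1 joint and needs no correction for length. The shorter Tulp4 ring ranked 8 of 1046 by reads over all libraries and Nfix ranked 11. The Nfkb1, main Zfp148 and shorter Elf2 rings ranked 41, 53 and 64 with 26, 22 and 20 reads, a spread too small to order them.

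Where 4 values follow each other, the first pair is sham 1 and sham 2 and the second pair I/R 3 and I/R 4. The Nfix ring had 13 reads in sham 1, 14 in sham 2, 22 in I/R 3 and 21 in I/R 4. Both I/R libraries lay above both sham libraries, at 11395 ± 1131 CPM against 7742 ± 1221 CPM (SD, n = 2). The fitted log2 fold change, I/R over sham, was 0.68 with a standard error (SE) of 0.32, and without any 1 library, with edgeR's scaling factors between libraries (TMM) computed anew, it ranged from 0.53 to 0.65. Non-junction reads at the exon were 48, 36, 52 and 73 so they too were higher in both I/R libraries (log2 fold change 0.65, SE 0.24, with 0.44 without I/R 4). Circular and non-junction reads of this developmental factor thus differed between groups by similar factors. The circular share, 2 times the back-splice reads over 2 times the back-splice reads plus the non-junction reads, was 35.1% (interval 21.2 to 50.4), 43.8% (27.9 to 59.6), 45.8% (32.9 to 58.6) and 36.5% (25.2 to 48.6), and the groups overlapped.

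For the ETS factor Elf2, the shorter ring had 2 and 4 reads under sham and 9 and 5 after I/R. In CPM the highest sham library (2459) and the lowest I/R library (2523) were separated by less than 1 read. The log2 fold change was 1.21 (SE 0.57, below counting error), with 0.61 without I/R 3 and 1.64 without sham 2. The longer ring was listed with 5 reads in I/R 3 and in no other library. Summed over both rings, the host had 2, 4, 14 and 5 reads, so most of its difference lay in I/R 3. Non-junction reads at the shorter ring were 19, 27, 29 and 28. Its circular share was 17.4%, 22.9%, 38.3% and 26.3%, above sham in both I/R libraries, but with intervals as wide as 2.32 to 46.6% in sham 1 and 20.5 to 57.4% in I/R 3.

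At Nfkb1 the groups differed without overlap in non-junction reads, while they overlapped in the ring. The ring had 7 and 7 reads under sham and 7 and 5 after I/R (4003 ± 423 CPM against 3202 ± 960 CPM, SD, n = 2; log2 fold change -0.20, SE 0.34). Without I/R 3 that value was -0.58, without sham 2 it was -0.33 and without I/R 4 it was -0.05. In the fit per host the same reads gave -0.17 with an SE of 0.55, and the smaller SE lies below counting error. At the same sites the non-junction reads numbered 53 and 47 under sham against 27 and 26 after I/R, without overlap (log2 fold change -0.83, SE 0.25). The circular share was 20.9% and 23.0% in sham and 34.1% and 27.8% in I/R. The 4 intervals overlapped, from 9.20 to 36.8% in sham 1 and from 16.0 to 55.0% in I/R 3.

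Zfp148, a Krüppel-type zinc finger factor that binds GC-rich promoters, differed from Nfkb1 in the direction of its non-junction reads and circular share. Its main ring had 7 and 6 reads under sham and 5 and 4 after I/R, so in raw counts the groups nearly met. That was 3696 ± 11.3 CPM against 2395 ± 533 CPM (SD, n = 2). The sham SD of 11.3 CPM is far below the worth of 1 read there (529 to 615 CPM) and understates counting error. The log2 fold change was -0.50 (SE 0.37, below counting error), with -0.38 without sham 1 and -0.79 without I/R 3. Non-junction reads there were 58, 47, 74 and 68, higher in both I/R libraries (log2 fold change 0.52, SE 0.23). The share of circular reads was therefore lower in both, 11.9% (interval 4.09 to 24.8) and 10.5% (3.02 to 24.0), against 19.4% (8.50 to 34.6) and 20.3% (8.19 to 37.4) in sham. The smaller Zfp148 ring was listed with 2 reads in sham 2 and 2 in I/R 4, beside 16 and 22 non-junction reads.

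The Zfp512 ring was listed in I/R alone, with 5 reads in each library. Because a sham library at 0 may hold 1 read, no fold is given. Non-junction reads at its sites, 85 in I/R 3 and 89 in I/R 4, are listed only where the ring is, so those of the sham libraries were not analysed here and a difference in linear reads could not be tested. Its circular share was 10.5% (interval 3.59 to 22.2) and 10.1% (3.44 to 21.4).

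The shorter Tulp4 ring was the most abundant of the 9, with 26 and 15 reads under sham and 26 and 34 after I/R. Scaled to the library total both I/R libraries lay above both sham libraries (13757 and 9219 CPM, then 14412 and 17154 CPM), whereas with TMM scaling sham 1 and I/R 3 changed places and the groups overlapped. The log2 fold change of 0.55 (SE 0.48) was 1.01 without sham 1, 0.09 without sham 2 and 0.29 without I/R 4. Non-junction reads were nearly level at 80, 79, 90 and 77. The circular share was 39.4% and 27.5% in sham and 36.6% and 46.9% in I/R, with overlapping groups. The longer ring, which closes on exon 3 instead of exon 1, had 4, 2, 0 and 2 reads. It shares its first base with the shorter ring, so the 63, 61 and 43 non-junction reads listed for it in sham 1, sham 2 and I/R 4 may in part be the same reads. Over all libraries the longer ring had 8 reads and the shorter 101.

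**Figure D2:**
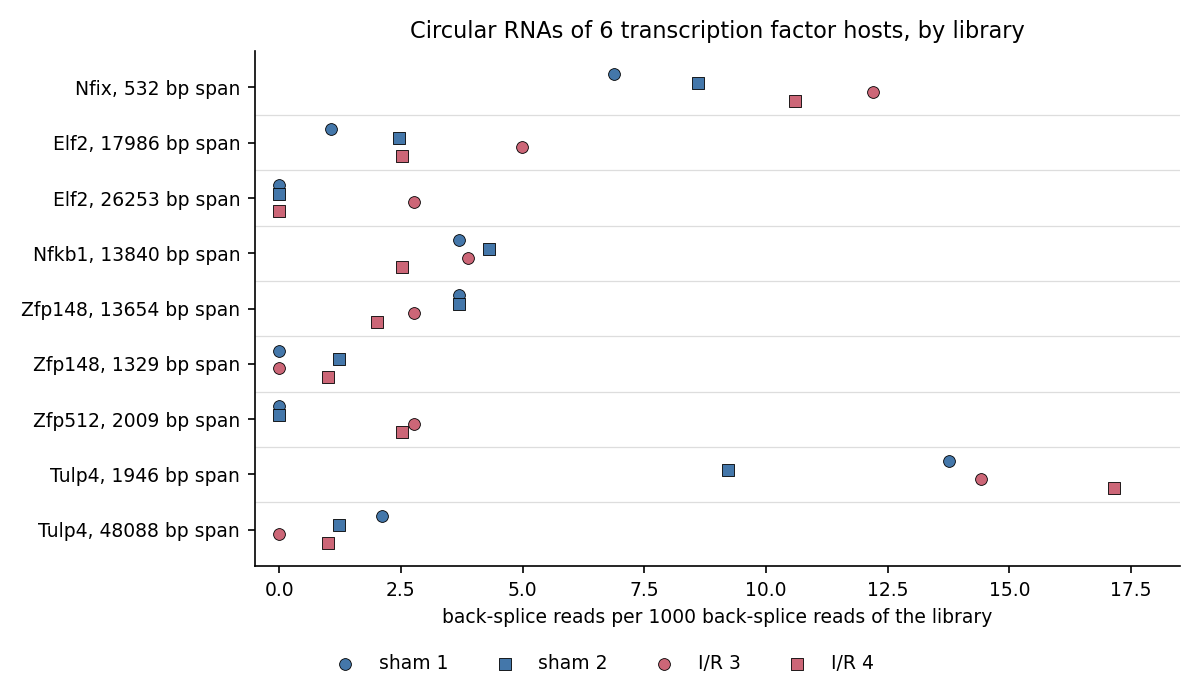
Back-splice reads per 1000 back-splice reads of the library (x axis) for the 9 circRNAs, 1 row each, named by host and genomic span, with 1 point per library (blue for sham, red for I/R). Nfix and Zfp512 have both I/R points to the right of both sham points, as do the shorter Elf2 and Tulp4 rings by smaller margins, the main Zfp148 ring has both to the left, and a point at 0 stands for 0 or 1 read.

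None of the 6 members with enough reads to be tested (10 over all libraries and a read in at least 2) reached an adjusted p under 0.05 with edgeR (quasi-likelihood test), nor did any of the 158 circRNAs tested (0 calls, 0.0%). At an unadjusted p under 0.05 there were 9 of the 158, of which 1 was a member, Zfp512. DESeq2 also gave 0 calls, with 6 at that level, and limma-voom 0 with 7. The 10 reads of Zfp512 were all in I/R, so it met the filter only through the libraries where it was high. Nothing is read from its p. In reads summed per host 0 of 153 hosts passed in edgeR (0.0%), with 8 at an unadjusted p under 0.05, and again 0 in DESeq2 and in limma-voom, with 4 and 8. The members, Zfp512 included, had a median log2 fold change of 0.62, with 4 above 0 and 2 below. Over all 158 the median was 0.06 (90 above and 68 below). The I/R libraries both exceeded the sham libraries in 4 of the 6, Zfp512 among them, against a background of 17.7% of the 158. They both fell short of the sham libraries in 1, against 20.9%. With TMM scaling the counts were 3, again with Zfp512 (background 17.1%), and 1 (20.3%). The members were picked with these values known, so nothing is read from the counts.

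Non-junction reads were tested in the same way at the 102 circRNAs with a value in all 4 libraries, 5 of the members among them. Nfkb1 was among the 9 called by edgeR (8.82%; 4.9% lower and 3.92% higher in I/R). That call held in 1 of 7 other settings, the one without TMM factors, and was lost in DESeq2, without any 1 library and with sites limited to 100 or more non-junction reads. Where the call was lost, the log2 fold change of Nfkb1 was -0.82 in DESeq2, -0.80 with the limit of 100 reads and -0.89 to -0.73 without any 1 library. These settings refit the same libraries, and Nfkb1 was picked with its reads known, so the values are no support. With that limit Nfix and Zfp148 passed instead, both higher. The I/R libraries both exceeded the sham libraries at Nfix, Zfp148 and Elf2 (background 27.5% with TMM scaling) and both fell short of them at Nfkb1 (31.4%). Scaled to the total alone, Elf2 overlapped. Leaving out the TMM factors moved the median of all 102 from -0.04 to -0.23 on the log2 scale and turned the Tulp4 value from 0.16 (SE 0.21) to -0.04. Leaving out I/R 3 or I/R 4 gave 0.05 or 0.31 at Tulp4.

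The circular share itself was not tested. The change of back-splice against non-junction reads was tested in a single edgeR model over the 102. Each kind of read was scaled within each library with TMM. A value is thus relative to the other circRNAs, and its sign can differ from that of the share, as at Nfix. No member passed, and 1 of the 102 did (0.98%), with 6 at an unadjusted p under 0.05. The log2 change of the ratio in I/R was -1.25 (SE 0.48) at Zfp148, 0.64 (SE 0.60) at Elf2 and 0.41 (SE 0.47) at Nfkb1. It was 0.20 (SE 0.29) at Tulp4 and -0.19 (SE 0.32) at Nfix. All of these SEs lie below the counting error of their reads. Without TMM the values were -1.04 at Zfp148, 0.867 at Elf2, 0.615 at Nfkb1, 0.407 at Tulp4 and 0.03 at Nfix. Zfp148 stayed between -1.25 and -1.16 when any 1 library was left out. Elf2 kept its sign, at 0.39 without I/R 3 and 0.96 without I/R 4, and Tulp4 and Nfix changed theirs. Without overlap, the shares were higher after I/R at Elf2 and Nfkb1 (background 30.4%) and lower at Zfp148 (16.7%).

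**Figure D3:**
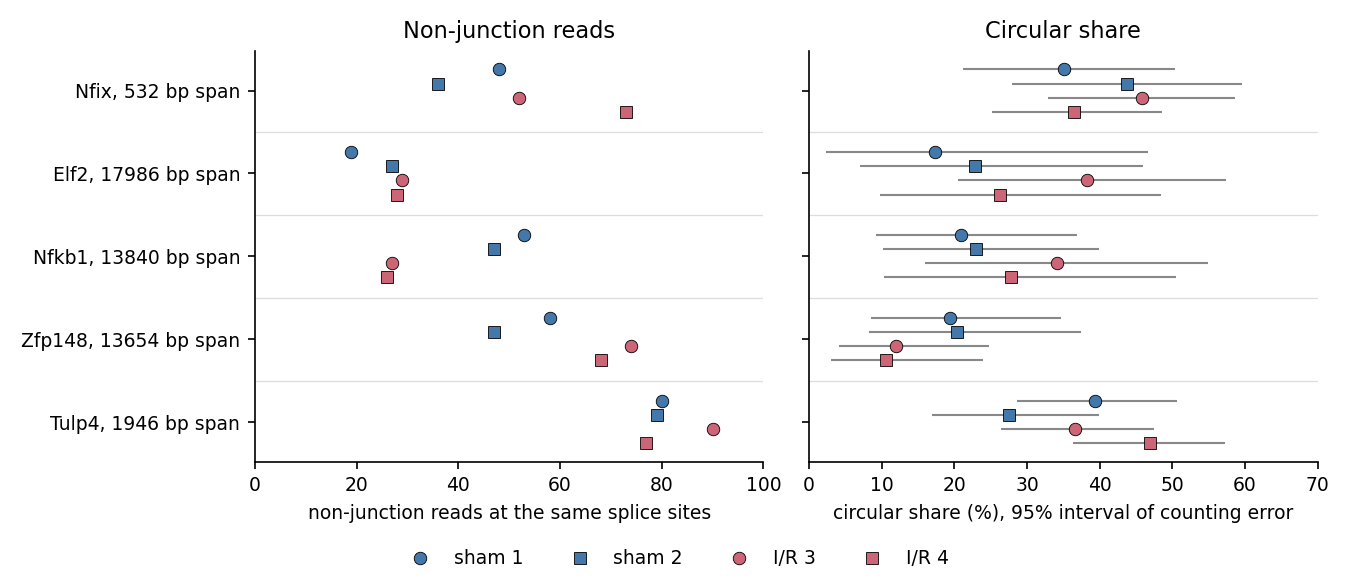
Non-junction reads (left) and circular share in percent with its 95% Clopper-Pearson interval (right) for the 5 circRNAs listed in all 4 libraries, 1 point per library (blue for sham, red for I/R). Nfkb1 has fewer non-junction reads after I/R (27 and 26) than under sham (53 and 47), Zfp148 has more, and all 4 intervals of each share overlap.

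**Figure D4:**
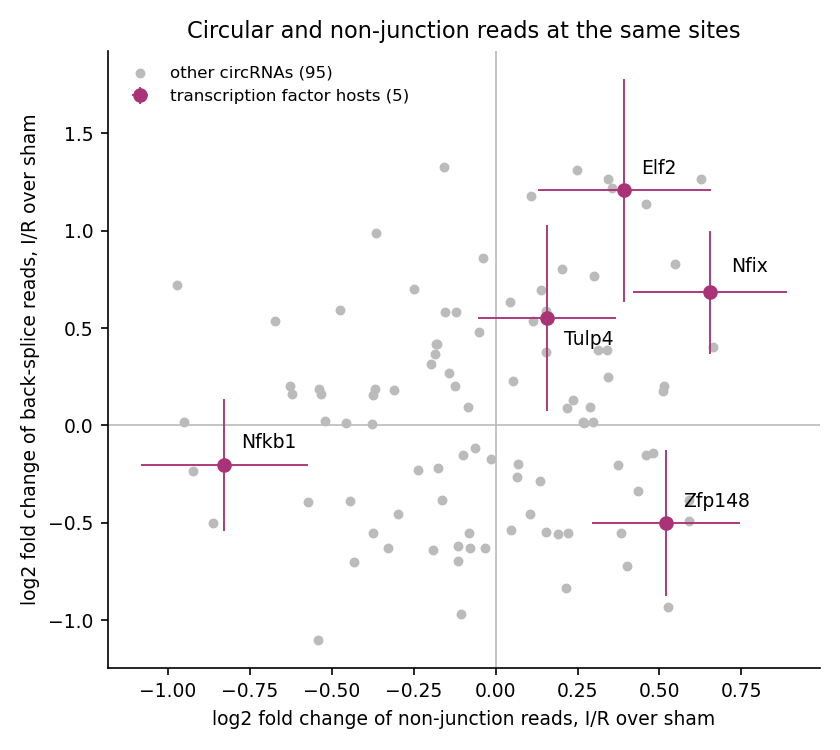
Fitted log2 fold change (I/R over sham) of non-junction reads (x axis) against that of back-splice reads (y axis) for 100 circRNAs in both fits, with the 5 members labelled by host and bars of 1 SE. The SEs can lie below counting error. Nfix and Elf2 lie above 0 on both axes, Zfp148 at 0.52 and -0.50, and Nfkb1 at -0.83 and -0.20.

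Averaged over the 4 libraries, the circular share was 40.3% at Nfix, 37.6% at the shorter Tulp4 ring, 26.4% at Nfkb1, 26.2% at the shorter Elf2 ring and 15.6% at the main Zfp148 ring, ranks 8, 9, 19, 20 and 44 of the 102, whose median was 11.0%. The ranks are a description, since the members were picked with these shares known.

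The authors' deposited table gives Zfp512 a log2 fold change of 3.44 with an adjusted p of 0.0343, a value that compares 5 and 5 reads with 0 and 0. In the authors' deposited table the shorter Tulp4 ring had 0.58 (adjusted p = 0.175), Nfix 0.63 (adjusted p = 0.278) and the shorter Elf2 ring 1.07 (adjusted p = 0.524). The other 5 members of the authors' deposited table lay between -1.60 for the longer Tulp4 ring and 1.70 for the longer Elf2 ring, with adjusted p of 0.524 or more. The contrast behind the authors' deposited table is not stated in it.

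Other transcription factor hosts gave the comparison for these 6. Of 190 transcription factor genes on a list, 36 had circRNAs in these hearts, 54 circRNAs in all with 147, 115, 135 and 160 reads, so that the 6 hosts are 9 of the 54. Of the other genes on the list, Zfp609, known for a circRNA that acts in myoblasts, had 9, 9, 10 and 9 reads (host log2 fold change 0.13, SE 0.46). Zfp827, a zinc finger gene, had 15, 7, 9 and 4 (-0.70, SE 0.61). Smad4, the shared effector of TGF-beta signalling, had 6, 9, 6 and 4 reads (-0.53, SE 0.60), and Tcf20 8, 0, 3 and 14 (1.13, SE 1.16). The 8 tested circRNAs of the list that are no members had 3 log2 fold changes above 0 and 5 below with a median of -0.45, and 0 passed in edgeR, with 0 at an unadjusted p under 0.05. Of 25 NF-kappa-B and stress-responsive genes on the list, Nfkb1 alone had a listed circRNA.

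By reads per 1000 back-splice reads in the 4 libraries, the host closest to each member among 152 others was found, with the root mean square difference as the measure. Zfp512 lay closest to Med12l (0, 0, 4 and 6 reads; difference 0.38). For a host listed in I/R alone the measure itself picks a neighbour near 0 in sham. Zfp148 lay closest to Nfkb1 (0.68) and Nfkb1 to Strbp (5, 7, 8 and 4 reads; 0.65). Elf2 lay closest to Tnxb (2, 7, 12 and 9 reads; 1.48), Nfix to Ep400 (12, 14, 16 and 11 reads; 3.03) and Tulp4 to Asph (25, 19, 20 and 18 reads; 5.05).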

How the data were processed

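For each library the authors deposited counts of back-splice and of non-junction reads per circRNA. The deposited fraction equals the circular share defined in the text, to within 0.0005. A merged count matrix differed from the library lists in 0 cells. The authors' deposited table holds log2 fold changes, p-values, a moderated t and a log odds (score columns), per the file headers. The submitters' processing notes name BWA 0.7.5a-r405, HTSeq 0.9.1 and mm9 without roles, and which program called circRNAs is not stated. Unlisted circRNAs were taken as 0 back-splice reads, and their non-junction reads as missing.

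edgeR 4.0.16 (R 4.3.3) quasi-likelihood tests compared I/R with sham over all circRNAs with at least 10 reads and a read in 2 libraries, with TMM factors (0.944, 1.155, 1.002 and 0.915) and Benjamini-Hochberg adjustment at 0.05. The tests that involve non-junction reads used the 102 circRNAs listed in every library. SEs come from the F statistic and can lie below counting error. Those of back-splice reads do so for the Nfix, Nfkb1, shorter Elf2 and main Zfp148 rings. DESeq2 1.42.0, limma-voom 3.58.1, other filters, no TMM and leaving out each library were alternatives. With 2 libraries against 2 an exact two-sided permutation test cannot go below 0.333, so none was run. All 218 list genes were found in the RefSeq gene table (GRCm38.p6). The members and lists were chosen with earlier results of these data known. Genes were named by rule: the 6 members, the 3 other listed transcription factor hosts with the most reads (4 with a tie), and the closest host to each member.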

Additional observations from a re-analysis of the deposited data

How the results depend on the processing

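No paired analysis was possible because the groups share no replicate number. Without a library, the arm left with 1 sample is assumed to vary like the other. Of 162 values of single members under an alternative, 147 kept direction and call, 7 changed direction and 8 changed call. The changes of direction were Nfkb1 host reads without I/R 4 (0.051, from -0.17; -0.44 to 0.051 without any library), Tulp4 non-junction reads without TMM (-0.036), the Tulp4 circular against non-junction ratio without sham 2 (-0.18) and without I/R 4 (-0.15; up to 0.69 without sham 1), and the Nfix ratio without TMM (0.03), without sham 2 (0.02) and without I/R 4 (0.083; down to -0.41 without sham 1). Over all circRNAs there were 3 calls without a filter instead of 0, and 0 to 1 when a library was left out, and for hosts from 0 to 1 without a filter and 0 to 0 without a library. No member was among them. Non-junction calls went from 9 to 4 without TMM and 2 in DESeq2, and were 1 to 8 when a library was left out. Circular against non-junction calls, 1 with all libraries, ranged from 0 to 2. The difference in host circular share, I/R minus sham, ranged without a library from -2.92 to 6.39 percentage points for Nfix (1.74 with all, below 0 without sham 1 or I/R 3), from 6.19 (without I/R 3) to 18.8 (without I/R 4) for Elf2 (12.5 with all), from 5.85 (without I/R 3) to 12.2 for Nfkb1 (9.04 with all), from -8.42 to -7.61 for Zfp148 and from 7.503 (without sham 2) to 17.5 for Tulp4. For Tulp4 it was 12.5 for the host sum, which holds 1 ring in I/R 3 and 2 in the other libraries, and 8.3 for the ring listed in all 4. For Zfp148 it was -8.01, with -8.68 for the ring listed in all 4 libraries and -4.73 without the factor 2. Leaving out the factor 2 lowers each share by the formula itself. The difference was then also smaller in size for Nfix (1.38), Elf2 (8.43), Nfkb1 (6.04) and Tulp4 (8.66). The cause of the other changes was not tested.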
